A study of Mus musculus with 4 samples.

Results

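miR-26a and miR-26b are the 2 mouse members of the miR-26 family, and each was read by 1 probe among the 700 miRNA probes of the array. Members were taken as the probes whose name is exactly mmu-miR-26a or mmu-miR-26b, without passenger strands, and both were among the 172 probes that could be tested. The cells were HC11, an established line of mouse mammary epithelial cells with stem-like properties. The proliferating group was grown in 10% serum with epidermal growth factor and was collected at 48 h. The differentiated group was held for 48 h in 2% serum with that growth factor withdrawn, and then received 100 nM dexamethasone, a synthetic glucocorticoid, and 1 µg/mL ovine prolactin for 72 h. No genetic change separates the groups, so serum, growth factor, hormones and time in culture differ together and cannot be told apart. Each group had 2 samples on 2 two-colour arrays. Array 1 carried proliferating replicate 1 in Cy3 with differentiated replicate 1 in Cy5, and array 2 carried differentiated replicate 2 in Cy3 with proliferating replicate 2 in Cy5. Nothing in the labels says that the samples of a stage came from separate cultures. The titles also carry the tag repx3 with no explanation, so whether a sample pools several cultures or repeats is unknown. The SDs and p-values below may therefore reflect technical spread alone.

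The miR-26 family is conserved among vertebrates, and its genes lie in introns of the Ctdsp genes, which encode small phosphatases of the RNA polymerase II tail. The mature miRNAs pair through their seed with mRNAs of cell-cycle and growth regulators, among them those of Ezh2 and of several cyclins and their kinases, and in other tissues they are known for restraining proliferation. MYC is known to repress both members. No mRNA or protein was measured here.

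The sequences each probe was designed for are shown because the 2 members share their seed and nearly all other bases. They are given from the 5′ to the 3′ end as the deposited tables list them, with the seed (bases 2 to 8) in capitals, together with the passenger strand of miR-26b, which also has a probe among the 700.
miR-26a: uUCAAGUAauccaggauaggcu
miR-26b: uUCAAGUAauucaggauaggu
miR-26b*: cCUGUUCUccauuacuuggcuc
Counted from 1 at the 5′ end of miR-26a, the members differ by the substitution C11U, and base 21 of miR-26a has no counterpart in miR-26b. That makes 2 edits in all, so the probes can share signal, and how much of each reading comes from the other member was not tested. Of the 22 bases of miR-26a 9 are G or C, against 7 of the 21 of miR-26b. No other target on the array came closer than 9 edits to miR-26a or 8 edits to miR-26b, and none shared the seed.

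The precursor hairpins are shown because the miR-26a reading sums over 2 genes. The listed sequences matched RefSeq mature miRNAs exactly, miR-26a at 2 loci and miR-26b at 1, and the hairpins below are from RefSeq (GRCm38.p6, all on the plus strand) with the mature miRNA in capitals.
Mir26a-1, chr9:119031796-119031885: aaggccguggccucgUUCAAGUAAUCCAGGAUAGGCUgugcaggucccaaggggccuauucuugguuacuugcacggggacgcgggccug
Mir26a-2, chr10:126995530-126995613: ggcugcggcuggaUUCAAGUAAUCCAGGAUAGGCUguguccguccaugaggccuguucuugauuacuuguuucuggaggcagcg
Mir26b, chr1:74394310-74394394: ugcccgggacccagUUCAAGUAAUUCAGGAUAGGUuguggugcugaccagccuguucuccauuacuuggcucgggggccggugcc
Mir26a-1 lies within the span of Ctdspl, Mir26a-2 within Ctdsp2 and Mir26b within Ctdsp1, each a protein-coding gene. The array cannot tell the products of Mir26a-1 and Mir26a-2 apart, because their mature sequences are the same.

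After normalization within arrays both members read higher in the differentiated sample on each array, as did 40.1% of the 172 tested probes. In bulk RNA, more cells that express a miRNA and more of it per cell cannot be told apart. Each probe was printed in 5 spots, and the values below are means of the 5 spots in scanner units, with the background still in them. For miR-26a, the guide-strand product of the 2 Mir26a genes, the spots averaged 4754 ± 425 (SD, n = 5 spots) in proliferating replicate 1 and 4568 ± 421 in proliferating replicate 2. They averaged 31954 ± 2571 in differentiated replicate 1 and 34583 ± 698 in differentiated replicate 2. Both differentiated samples thus lay far above both proliferating ones before any normalization, and the 2 samples of each stage were close. These values are not on a common scale, since the samples differed in dye and array. After normalization the rise of miR-26a was 4.81-fold on array 1 and 2.87-fold on array 2, smaller than these values give. The share of tested probes with both differentiated samples above both proliferating ones was counted only on normalized values, where it was 34.9%. Local background averaged 156, 64.4, 37.7 and 223 in the same order, a small part of the miR-26a signal in each sample. The brightest spot of any kind was between 49854 and 62583 in the 4 samples, above every miR-26a spot, of which the highest read 35538.

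For miR-26b, the guide strand of Mir26b, the spots averaged 344 ± 101 in proliferating replicate 1 and 621 ± 112 in proliferating replicate 2. They averaged 1919 ± 703 in differentiated replicate 1 and 8912 ± 1005 in differentiated replicate 2. The stages did not overlap here either, again with no share of probes counted on these values, so this is not read as particular to miR-26b. The raw rise was larger on array 2, but these values too are not on a common scale. After normalization it was 7.90-fold on array 1 and 5.18-fold on array 2. The samples of a stage lay further apart than for miR-26a. In proliferating replicate 1 the local background of 156 was close to the lowest miR-26b spot, at 234. A spot counted as detected where its signal over background passed a margin set at the mean plus 3 SDs of the empty spots, and a probe where at least 3 of its 5 spots did. By that rule all 5 spots of both members were detected in every sample. The mean miR-26b signal over background was 14.2, 10.4, 243 and 55.5 times the detection margin of its sample, in the order given above. The brightness of the 2 probes does not rank the 2 miRNAs, because probes differ in how well they hybridise.

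**Figure D1:**
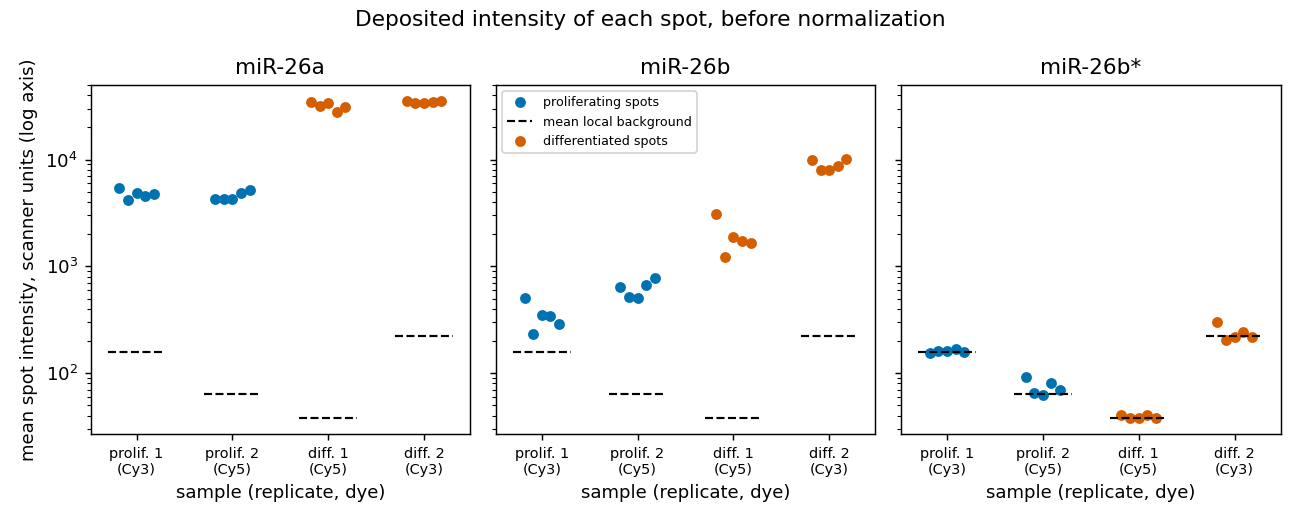
Mean intensity of each of the 5 spots (scanner units, log axis) of miR-26a, miR-26b and the passenger strand miR-26b* in the 4 samples, with the dye under each sample and the mean local background as a dashed line. All miR-26a and miR-26b spots lie above background and are higher in the differentiated samples, whereas the miR-26b* spots lie at the background in all 4 samples.

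The passenger strand miR-26b*, the other arm of the Mir26b hairpin, was not detected in any of the 4 samples, with 0 of 5 spots detected in each. Its spots exceeded the local background by 4.44 and 9.84 in the proliferating samples and by 1.38 and 15.03 in the differentiated ones, all under the margins of 13.2, 53.7, 7.75 and 157. These spots stand 1 row from those of miR-26b and 2 rows from those of miR-26a in the same column. No change can be given for this strand.

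After background correction and loess within each array, with the 2 arrays set to a common scale, the log2 intensity of miR-26a was 12.57 and 12.72 in the proliferating samples and 14.83 and 14.24 in the differentiated ones. That of miR-26b was 8.31 and 9.62 in the proliferating samples and 11.29 and 11.99 in the differentiated ones. The differentiated samples remained above the proliferating ones for both members, as they did for 34.9% of the tested probes. The SD over the 2 samples of a stage was 0.10 and 0.42 for miR-26a (proliferating and differentiated) and 0.93 and 0.50 for miR-26b. miR-26b was lower on array 1 than on array 2 in both stages, so that its ratio varied less than its levels.

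**Figure D2:**
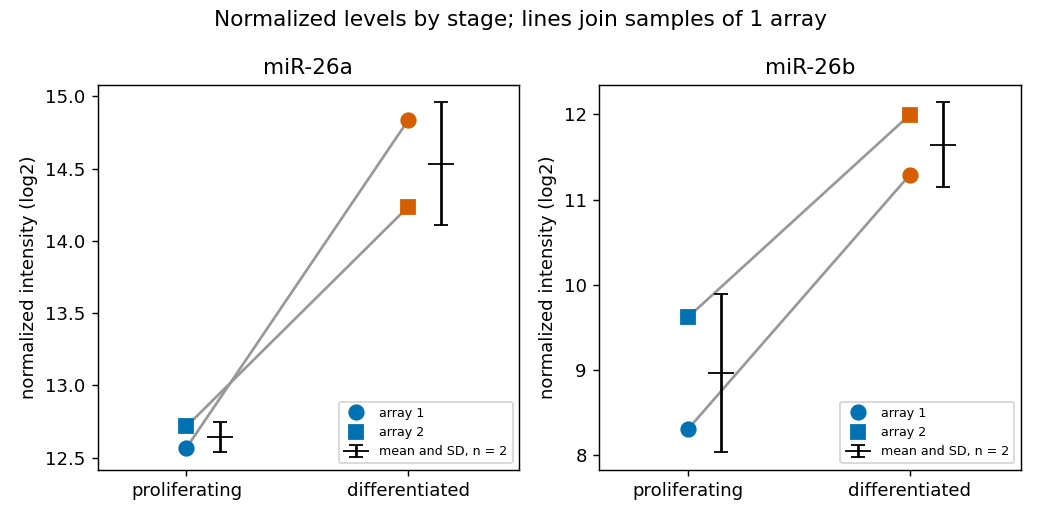
Normalized log2 intensity of miR-26a and miR-26b in each sample (circles, array 1; squares, array 2), with grey lines joining the samples of 1 array and bars for the mean and SD of the 2 samples. Each line rises from the proliferating to the differentiated sample, and the miR-26b lines run nearly parallel at different heights.

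Within arrays, miR-26b was 7.90-fold higher in the differentiated sample on array 1 and 5.18-fold higher on array 2. miR-26a was 4.81-fold higher on array 1 and 2.87-fold higher on array 2. The mean log2 ratio of miR-26b was 2.68 ± 0.43 (SD, n = 2 arrays; SE 0.25; limma adjusted p = 0.0136), a 6.40-fold rise, and that of miR-26a was 1.89 ± 0.53 (SE 0.28; limma adjusted p = 0.0278), a 3.71-fold rise. P-values were adjusted over all 172 tested probes, of which 16.9% were called higher and 13.4% lower at the threshold of 0.05. By size of the ratio miR-26b stood at rank 8 and miR-26a at rank 21 from the top. With 2 samples a stage the smallest p of an exact permutation test that ignores the array pairing is 0.333. The calls therefore rest on the variance that limma shares across probes.

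The call of both members was lost when undetected probes were kept in, with adjusted p-values of 0.0528 for miR-26b and 0.117 for miR-26a over 700 probes. In a fit without the array pairing, leaving out differentiated replicate 2 gave miR-26b a log2 ratio of 2.32 with an adjusted p of 0.0669.

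The rise was seen in every spot. The 5 spot ratios of miR-26a ranged from 2.15 to 2.44 on array 1 and from 1.37 to 1.63 on array 2 in log2 units. Those of miR-26b ranged from 2.80 to 3.25 on array 1 and from 2.22 to 2.48 on array 2. All spot ratios were above 0 on both arrays for 36.6% of the tested probes. For each member the spot ratios of array 1 lay wholly above those of array 2, so the arrays differed by more than the spots within an array. The spots of 1 probe on 1 array are repeat readings of the same RNA and are not replicates of a stage.

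The level and the ratio both varied among the 5 spots of a probe, and an effect of place on the array was not tested. On array 1 the miR-26b spot in row 13 was the brightest in both channels, at 504 in the proliferating and 3092 in the differentiated sample, and the spot in row 41 was the dimmest in both, at 234 and 1213. Their log2 ratios were 2.83 and 3.25, the latter the highest of the 5. On array 2 the miR-26a spot brightest in the proliferating channel, at 5179, had the lowest ratio, 1.37. The spread between spots of a sample was 29.3% of the mean for miR-26b in proliferating replicate 1 and 36.6% in differentiated replicate 1, against 8.93% and 8.04% for miR-26a. The spot ratios of miR-26b on that array had an SD of 0.19 in log2 units, against 0.12 for miR-26a.

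The ratio on array 1 exceeded that on array 2 by 0.75 for miR-26a and by 0.61 for miR-26b in log2 units. The median size of this difference over the tested probes was 0.42. Array 1 gave the higher ratio for 61 of the 172 tested probes, or 35.5%, and for 7 of the 29 called higher, both members among them. The differentiated sample was in Cy5 on array 1 and in Cy3 on array 2, so a dye effect of a probe and a difference between the replicates cannot be told apart.

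**Figure D3:**
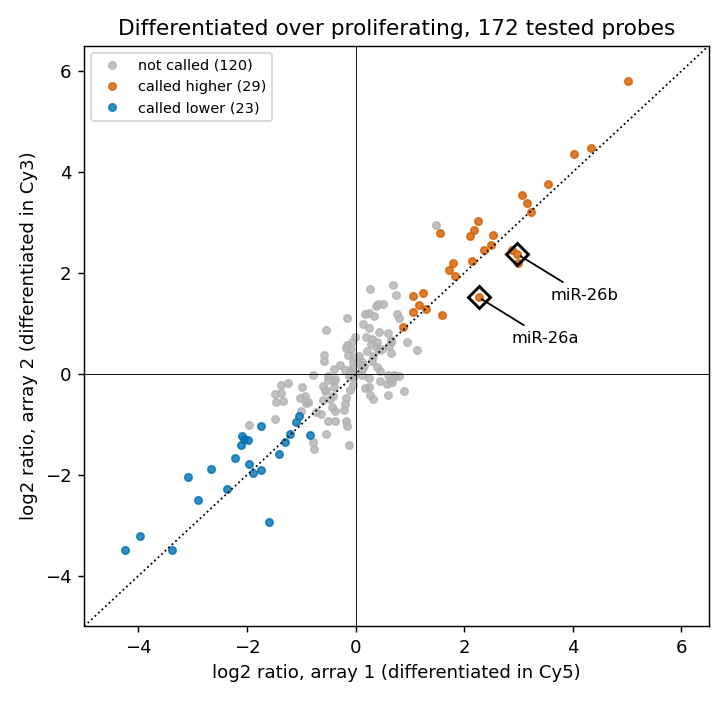
Log2 ratio of differentiated over proliferating cells on array 1 (horizontal) and array 2 (vertical) for the 172 tested probes, coloured by call, with the line of equal ratios dotted. miR-26a and miR-26b (diamonds) lie among the probes called higher, below the dotted line because their ratio was larger on array 1.

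The rise of miR-26b was larger than that of miR-26a on both arrays, by 0.72 on array 1 and by 0.85 on array 2 in log2 units (mean 0.78 ± 0.10, SD, n = 2 arrays). With 2 arrays this difference was given no test. Its direction was the same in 8 other processings of the arrays and in the table deposited by the authors, with sizes between 0.53 and 1.03. It rested on single samples for its size: in the fit without the array pairing, an alternative chosen after seeing the data, it was 0.13 without differentiated replicate 2, 0.20 without proliferating replicate 1, 1.37 without proliferating replicate 2 and 1.44 without differentiated replicate 1. With plain subtraction of the background the log2 ratio of miR-26b was 3.01, and that of miR-26a was 1.98.

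The value table deposited by the authors, whose scale and centring stay unknown, also put both differentiated samples above both proliferating ones for each member. The share of probes so separated was not counted in that table, so the separation is not read as particular to these members. On the normalized values above it was 34.9%. In it miR-26a had 6415 and 6409 in the proliferating samples and 27366 and 20253 in the differentiated ones. miR-26b had 238 and 933 in the proliferating samples and 1963 and 3165 in the differentiated ones. The ratios within arrays were 4.27 and 3.16 for miR-26a and 8.24 and 3.39 for miR-26b, so the 2 members differed on array 1 and were close on array 2 in that table. Fitted in the same way, both members were called higher in it, as were 27.9% of the tested probes. In that fit limma gave all probes 1 shared error, so these calls are not comparable with the main ones.

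Loess sets the ratios against the miRNA probes as a whole, and the median log2 ratio of the tested ones was 0.11. The spike controls, of which 15 probes were detected in all 4 samples, had a median log2 ratio of -1.07 on array 1 and -1.40 on array 2. Centred on them, the log2 ratio of miR-26b was 3.91 and that of miR-26a 3.13. In that setting the median of all tested probes was 1.35 and 68% were called higher, so a call there says little about these members.

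**Figure D4:**
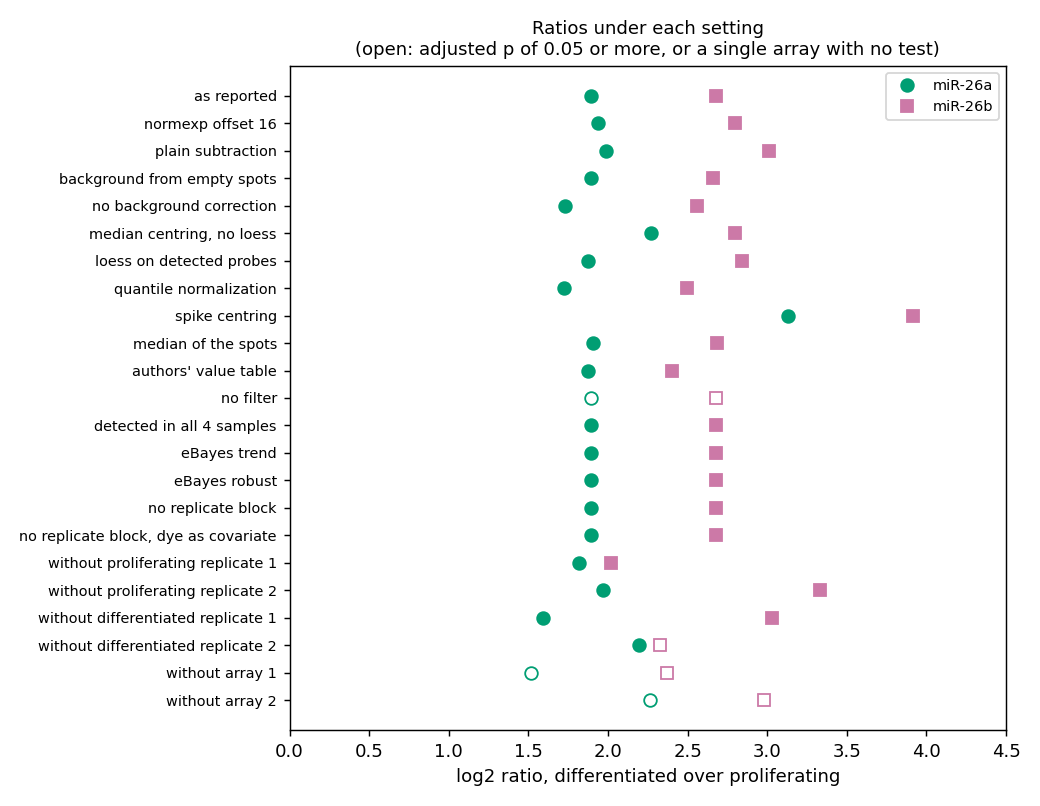
Log2 ratio of differentiated over proliferating cells for miR-26a (circles) and miR-26b (squares) under each processing setting, filled where the adjusted p was under 0.05 and open where it was not or where a single array gave a value with no test. All values lie above 0, from 1.52 to 3.13 for miR-26a and from 2.02 to 3.91 for miR-26b.

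The labelled epithelial origin was checked against marker miRNAs. Of 6 epithelial probes miR-200a, miR-200b, miR-429 and miR-205 were detected in all 4 samples, miR-200c in 2 and miR-141 in none. No sample detected an endothelial probe (0 of 2), nor miR-142-3p, miR-142-5p, miR-223 or miR-451 of the 5 blood probes, nor miR-1, miR-133a or miR-133b of the 4 muscle probes. miR-206, the remaining muscle probe, was detected in 3 samples, both proliferating ones included, and miR-486, the remaining blood probe, in 2. In the table deposited by the authors the epithelial markers summed to 7314 to 7644 in the proliferating samples and 19699 to 21301 in the differentiated ones. They did not all rise alike. By the ratio within arrays miR-200a, miR-200b and miR-429 were called higher, whereas miR-200c (log2 ratio 0.75 ± 0.57) and miR-205 (0.20 ± 0.52) were not. In the same table the sum of the 5 fibroblast markers also rose, with 86.7 to 91.2 and 216 to 319. Of these markers 0 were detected in both proliferating samples and 2, miR-143 and miR-145, in both differentiated ones. No sample detected miR-199a-3p, miR-199a-5p or miR-214. By the ratio within arrays miR-143 (log2 ratio 0.90 ± 0.04) was also called higher, and miR-145 (0.98 ± 0.30) was not. The muscle marker miR-206 (-1.02 ± 0.26) was called lower. The muscle sum was 192 to 197 and 71.9 to 85.6, that of blood 74.4 to 78.5 and 63.6 to 69.8, and that of endothelium 18.9 to 21.5 and 18.2 to 22.7. The part of cell composition in the rise of miR-26a and miR-26b was not tested.

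Other miRNAs of the same regulatory settings were described by 2 lists. The first held miRNAs that, like miR-26, are reported as repressed by MYC. Of its 17 members 15 were tested, 5 were called higher and 0 lower, beside 16.9% and 13.4% of all tested probes, with a median log2 ratio of 0.80 against 0.11. The members called higher were miR-30b (2.41 ± 0.06; limma adjusted p = 0.0103), miR-30c (1.14 ± 0.12), miR-30d (1.30 ± 0.34), miR-195 (1.89 ± 0.08) and miR-146a (2.20 ± 0.06). Of these miR-30b, miR-30c and miR-30d are of the same family. The let-7 members of the list are of another, as are miR-29a and miR-29c, and as are miR-15a, miR-16 and miR-195. The 15 are therefore not separate readings, and shared signal among their probes was not tested. The brightest members were not called. let-7a had a ratio of 0.34 ± 0.55, let-7d of 0.26 ± 0.18, let-7f of 0.80 ± 0.47 and miR-29a of -0.28 ± 0.18. The lowest ratios of the list, neither of them called, were -0.62 ± 0.52 for miR-22 and -0.57 ± 0.06 for miR-16. The ratio of miR-26b was above those of all 15, but in the table deposited by the authors the log2 ratios of miR-146a (3.27), miR-30b (2.49) and miR-195 (2.46) were above that of miR-26b (2.40).

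The second list held miRNAs that, like miR-26a, are reported to target Ezh2, the methyltransferase of Polycomb repressive complex 2. Of its 8 members only let-7a, let-7b, let-7c and miR-98 were tested, and 0 were called in either direction (limma adjusted p from 0.223 to 0.546). Of all tested probes 16.9% were called higher and 13.4% lower, so 0 of 4 says little. The tested part holds only let-7 members and miR-98, and so does not speak for the rest of the list. Their ratios ran from 0.26 to 0.46, with a median of 0.34. Directions of these lists are relative to the bulk of probes. With spike centring their medians were 2.04 and 1.58, against 1.35 for all tested probes.

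**Figure D5:**
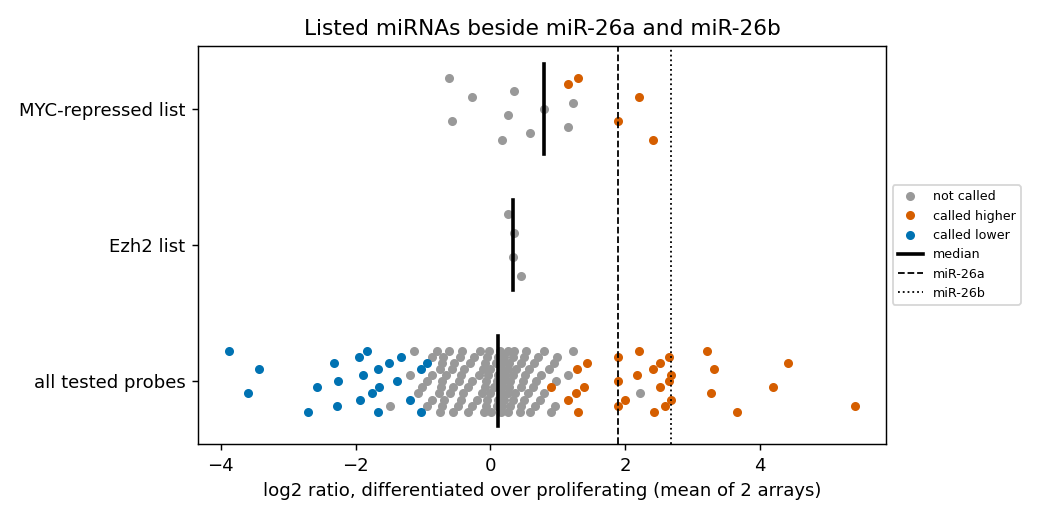
Log2 ratio of differentiated over proliferating cells (mean of 2 arrays) of each tested miRNA of the MYC-repressed and Ezh2 lists and of all 172 tested probes, coloured by call, with medians as black bars and vertical lines at the ratios of miR-26a and miR-26b. Both lines lie to the right of every tested miRNA of the Ezh2 list, which are let-7 members and miR-98 only.

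Likeness to each member was measured as the root mean square difference over the 4 samples of log2 values centred on each probe's mean. The 5 probes most like miR-26a were miR-2137 (0.31), miR-146a (0.34), miR-30b (0.36), miR-429 (0.37) and miR-2141 (0.39). Those most like miR-26b were miR-21 (0.43), miR-2146 (0.46), miR-195 (0.47), miR-2143 (0.48) and miR-762 (0.49). The members themselves were 0.73 apart, which put miR-26b at rank 33 among the probes nearest to miR-26a and miR-26a at rank 17 among those nearest to miR-26b. The measure rests on 4 samples in 2 stages. Of the 5 names, median centring without loess kept 2 for miR-26a and 4 for miR-26b, and the table deposited by the authors kept 3 and 2.

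Both members read higher, although the array cannot tell whether Mir26a-1, Mir26a-2 or both gave the rise of miR-26a. The RefSeq promoter windows of the 3 host genes were searched on both strands. Each window has 300 bases around an annotated start, 1 for Ctdsp1, 1 for Ctdspl and 2 for Ctdsp2, all in GRCm38.p6. The letters TTCNNNGAA, a core bound by STAT5 downstream of prolactin, were in none of the 4 windows and in 8.3% of 32851 windows of all genes. CACGTG, the E-box that MYC binds, was in none of them and in 7.15% of all windows. AGAACA, a half-site of the glucocorticoid receptor that can share bases with TTCNNNGAA, was found once, in the second Ctdsp2 window, and in 19% of all windows. That window holds the Mir26a-2 hairpin, and the match lies within the hairpin. GC content was 72% for Ctdsp1, 79.3% for Ctdspl and 66.7% and 52.7% for the windows of Ctdsp2, against a median of 52.7% over all windows. A match or its absence in such a window describes these letters only.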

How the data were processed

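Total RNA of 4 HC11 samples was labelled and hybridised by LC Sciences, per the labels' protocols, after small RNAs had been tailed with poly(A) and tagged. The deposited scanner tables hold, per the file headers, the mean intensity and its SD for 3968 spots in 1 dye channel per sample, with no background removed and no normalization. The authors also deposited a table of processed intensity per probe, made by steps not given in the sources used here. Its medians were 13.9, 13.6, 15.1 and 13.9 for proliferating replicates 1 and 2 and differentiated replicates 1 and 2, and each column correlated best with its own sample (r of 0.984 to 0.997 over the tested probes).

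Local background was the 20th percentile of spots within 7 rows and columns. It was corrected by normexp with an offset of 50, which understates ratios of dim probes, and arrays were normalized by loess (span 0.3, controls at weight 0) in limma 3.58.1 under R 4.3.3. Means over the 5 spots gave 1 value per probe. A probe was tested where both samples of either stage detected it (172 of 700), by limma's lmFit and eBayes fitted to within-array log2 ratios, two-sided, with Benjamini-Hochberg adjustment (1 residual and 2.08 prior degrees of freedom). Sample levels followed Aquantile scaling. The code was tested on simulated data, which checks the code only and does not bear on the calls made here. Same-numbered samples share an array by the series' design text, and their deviations from stage means had a correlation of 0.338, identical for both numbers by construction.

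The members, the 2 lists and the tests were chosen with earlier results of these data known. Beside the members, the text names their passenger strand, the 5 nearest probes of each, and list members by brightness. The list members called were named after their values were seen. A further list is not reported here. Alternatives covered background, normalization, centring, filter, variance model, pairing, dye, threshold, the authors' table and left-out samples. The number of arrays, 2, limits the precision. The labels conflict on the unit of the growth factor, whose concentration is not used here.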

Additional observations from a re-analysis of the deposited data

How the results depend on the processing

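Each of 20 alternatives with a test put miR-26a and miR-26b higher in differentiated cells, and they passed the threshold in 19 and 18. Direction could not change where the ratios were reused (filters, eBayes options, no replicate block, dye as a covariate), nor could the difference between the members with spike centring. In 8 of the 20 limma's prior degrees of freedom were infinite, so that all probes had 1 shared error, and those p-values are not comparable with the others. Calls were lost with no filter (log2 ratio 2.68, limma adjusted p = 0.0528, for miR-26b and 1.89, 0.117, for miR-26a) and at a threshold of 0.01 (0.0136 and 0.0278). With no filter more probes were tested, and the prior degrees of freedom also changed, to 1.40. Without the replicate block both calls held (limma adjusted p = 7.38e-12 and 5.75e-07). That fit ignores the array pairing and had 217 prior degrees of freedom, so its error was nearly shared by all probes. Its p-values are likewise not comparable with the main ones. Leaving out a sample or an array gave 2.02 to 3.33 for miR-26b, where the call was lost without differentiated replicate 2 (0.0669), and 1.52 to 2.27 for miR-26a. It gave 0.13 to 1.44 for the difference between the members, chosen after seeing the data (0.72 to 0.85 where an array was left out), 21 to 35 probes called higher and 19 to 31 lower. There the single sample left in a stage takes its spread from the other stage.

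The difference between the members was 1.03 with plain subtraction, 0.96 with loess on detected probes, 0.53 with median centring and 0.53 with the authors' table. Of 29 probes higher and 23 lower, offset 16 made 46 and 43, plain subtraction 48 and 37, no background correction 48 and 45, loess on detected probes 48 and 46, quantile normalization 50 and 58, spike centring 117 and 8, and a threshold of 0.01 gave 6 and 1. The values deposited by the authors gave 48 and 56. Median centring called 35 lower, no filter 13 lower, and the filter on all 4 samples 18 higher. The cause was not tested. By design the threshold acts on how many probes are called, and the filters on how many are tested and on the shared variance. Spike centring and some backgrounds were known from earlier results. Signal over background limits miR-26b* to no value.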
